A study of Mus musculus with 1 sample.

Results

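The 8 genes described here are the globin chains *Hba-a1*, *Hba-a2*, *Hba-x*, *Hbb-bs*, *Hbb-bt*, *Hbb-bh1* and *Hbb-y* and the heme enzyme *Alas2*. They were chosen by symbol from the 32285 genes of the table. Of the 8, 5 had UMIs (unique molecular identifiers, each marking 1 captured transcript) and 3 had none in any barcode. The balance of the chains was read in globin-rich cells, defined as kept cells with at least 50% of their UMIs from the 7 globin genes, and stray globin was read in all other kept cells.

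The data are 1 single-cell RNA library of *Scap* f/f mouse pancreas at an age of 2 weeks, for which organs of 5 to 6 males and females were mixed. The title labels it wildtype. In these mice both *Scap* alleles are floxed and, according to the study, no Cre recombinase is present, so *Scap* is expressed normally. The arm with *Scap* deleted was not analysed here, so no genotypes are compared. The pancreata were digested with collagenase, dead cells were removed, and a 3′ droplet library was sequenced. Because the animals were mixed, a cell cannot be traced to an animal and no spread between animals can be given. No test is therefore made, and every interval is an exact 95% interval for counting error within this library.

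The table held 11789 barcodes and 51540177 UMIs. Barcodes with over 800 and under 10000 UMIs and under 15% mitochondrial UMIs were kept, which left 10129 cells with a median of 2479 UMIs. The 7 globin genes took 703517 UMIs, or 2.27% of the UMIs of kept cells. Each barcode belongs to this single library, so no cells are shared between libraries.

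Hemoglobin is built from pairs of alpha-like and beta-like chains, each folded around a heme, and red blood cell precursors make the chains in near balance while they mature. Alpha-like and beta-like genes lie in separate clusters, and in each the embryonic genes, which serve the primitive red cells of the yolk sac, give way before birth to the adult genes. *Alas2* encodes the erythroid form of 5-aminolevulinate synthase, which carries out the first and rate-limiting step of heme synthesis in mitochondria. Young red blood cells (reticulocytes) have lost the nucleus but still hold globin mRNA, and in dissociated tissue they and their broken remains also shed that mRNA into the suspension.

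The alpha-like members lie on the forward strand of chromosome 11 of GRCm38, the assembly of mm10. *Hba-x* spans 32276400 to 32278116, *Hba-a1* 32283511 to 32284465 and *Hba-a2* 32296489 to 32297298. The beta-like members lie on the reverse strand of chromosome 7. *Hbb-bt* spans 103812524 to 103813996, *Hbb-bs* 103826534 to 103828096, *Hbb-bh1* 103841637 to 103843164 and *Hbb-y* 103851749 to 103853216. *Alas2* lies on the forward strand of the X chromosome from 150547375 to 150570638. The Ensembl identifiers of all 8 were the same in the table and in the GENCODE M21 annotation, which lists each as protein coding. Each globin gene has 3 exons, with 429 coding bases in the alpha-like and 444 in the beta-like genes.

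The ends of the coding sequences are shown because the reads of a 3′ library fall near them and because they decide how far a read can tell related chains apart. The last 90 coding bases, stop codon included, are given in GENCODE M21 sequence, with capitals where a gene differs from *Hba-a1* (alpha-like) or *Hbb-bs* (beta-like).
Hba-a1: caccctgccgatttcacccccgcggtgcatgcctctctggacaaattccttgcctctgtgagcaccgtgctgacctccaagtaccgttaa
Hba-a2: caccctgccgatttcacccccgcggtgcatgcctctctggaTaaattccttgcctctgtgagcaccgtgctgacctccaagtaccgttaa
Hba-x: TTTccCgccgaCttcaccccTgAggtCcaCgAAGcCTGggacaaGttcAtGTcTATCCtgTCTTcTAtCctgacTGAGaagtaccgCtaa
Hbb-bs: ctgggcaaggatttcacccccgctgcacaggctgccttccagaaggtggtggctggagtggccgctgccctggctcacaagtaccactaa
Hbb-bt: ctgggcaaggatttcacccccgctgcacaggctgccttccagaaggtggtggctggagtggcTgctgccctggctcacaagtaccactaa
Hbb-bh1: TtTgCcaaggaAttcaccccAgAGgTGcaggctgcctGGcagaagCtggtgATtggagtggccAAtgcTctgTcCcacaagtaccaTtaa
Hbb-y: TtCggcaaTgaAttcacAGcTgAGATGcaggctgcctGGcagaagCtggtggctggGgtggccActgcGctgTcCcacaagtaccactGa

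*Hba-a1* and *Hba-a2* differed at 1 of 429 coding bases, and *Hbb-bs* and *Hbb-bt* at 1 of 444. Of the 90-base stretches in the last 300 bases of the *Hba-a1* transcript, 57.3% also stood in *Hba-a2*, and 49.8% of those of *Hba-a2* stood in *Hba-a1*. For *Hbb-bs* and *Hbb-bt* these shares were 24.6% and 24.2%. The length of 90 bases was chosen here and is shorter than the paired-end reads the study names. Longer stretches could be shared less often. Cell Ranger counts only reads placed in a single gene, so reads from shared stretches are lost, and the split between near-identical copies is uncertain in every value below. The embryonic genes are separable. *Hba-x* differed from *Hba-a1* at 163 coding bases, *Hbb-bh1* and *Hbb-y* differed from *Hbb-bs* at 115 and 114, and none of the 90-base stretches was shared. A 3′ library counts a transcript once whatever its length, so levels of different genes are set side by side below as UMIs.

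The adult chains in use and the embryonic chains without UMIs can also be compared in their promoters. The 110 bases before the RefSeq start (GRCm38.p6, strand of the gene) are given, with capitals for the 5 motifs searched on either strand: the CACCC box, the CCAAT box, the GATAA motif (as bound by GATA factors), and the TATAA and the similar CATAA boxes near the start. The windows are chr11:32283562-32283671 for *Hba-a1*, chr11:32276490-32276599 for *Hba-x*, chr7:103827929-103828038 for *Hbb-bs*, chr7:103813924-103814033 for *Hbb-bt*, chr7:103853208-103853317 for *Hbb-y* and chrX:150547307-150547416 for *Alas2*.
Hba-a1: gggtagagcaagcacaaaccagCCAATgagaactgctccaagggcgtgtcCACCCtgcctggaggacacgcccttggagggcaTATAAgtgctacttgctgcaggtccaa
Hba-x: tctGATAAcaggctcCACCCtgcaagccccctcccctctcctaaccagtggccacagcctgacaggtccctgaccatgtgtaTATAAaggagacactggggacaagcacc
Hbb-bs: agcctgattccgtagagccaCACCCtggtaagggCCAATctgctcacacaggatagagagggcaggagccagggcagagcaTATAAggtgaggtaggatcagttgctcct
Hbb-bt: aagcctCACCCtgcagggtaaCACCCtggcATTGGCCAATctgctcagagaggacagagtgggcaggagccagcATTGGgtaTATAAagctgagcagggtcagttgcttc
Hbb-y: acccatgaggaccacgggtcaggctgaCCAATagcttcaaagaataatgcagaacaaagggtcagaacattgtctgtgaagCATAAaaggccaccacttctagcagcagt
Alas2: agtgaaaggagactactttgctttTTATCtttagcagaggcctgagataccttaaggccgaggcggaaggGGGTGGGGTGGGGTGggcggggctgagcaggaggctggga

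RefSeq promoters were matched for 7 of the 8 genes, all but *Hbb-bh1*. The sequences around the starts of *Hba-a1* and *Hba-a2* were identical over the 297 bases that overlapped when aligned, so only the first is shown. The adult genes *Hba-a1*, *Hbb-bs* and *Hbb-bt* each held the CACCC box, the CCAAT box and, starting 27 to 29 bases before the start, the TATAA box. In *Hbb-bt*, the CCAAT box stood on both strands, with opposite copies side by side. *Hba-x*, without UMIs, held the CACCC box, the GATAA motif and the TATAA box. *Hbb-y*, also without UMIs, held the CCAAT box and the CATAA box. *Alas2* held the GATAA motif and 3 adjoining copies of the CACCC box, all on the opposite strand. Over 32851 promoter windows of this length, 29.6% held the CACCC box, 20.2% the CCAAT box, 9.43% the GATAA motif, 10.9% the TATAA box and 11.7% the CATAA box, and a match is a description of letters only.

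Of the kept cells, 390 were globin-rich, which is 3.85% (3.48 to 4.24). The share of globin UMIs per cell had its modes at the ends of its range. It was 0 in 2844 cells, above 0 but under 0.1% in 5234, and between 90% and 95% in 228, while 14 cells lay between 45% and 50% and 15 between 50% and 55%. The cells nearest the limit stood at 48.0%, 48.3%, 49.0%, 49.1% and 49.5% outside it and at 50.3%, 50.7%, 51.3%, 51.8% and 52.0% inside, so the limit cuts a thin continuum. Globin-rich cells had medians of 1435.5 UMIs, 1207 globin UMIs, 139 other UMIs and 100 genes.

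**Figure D1:**
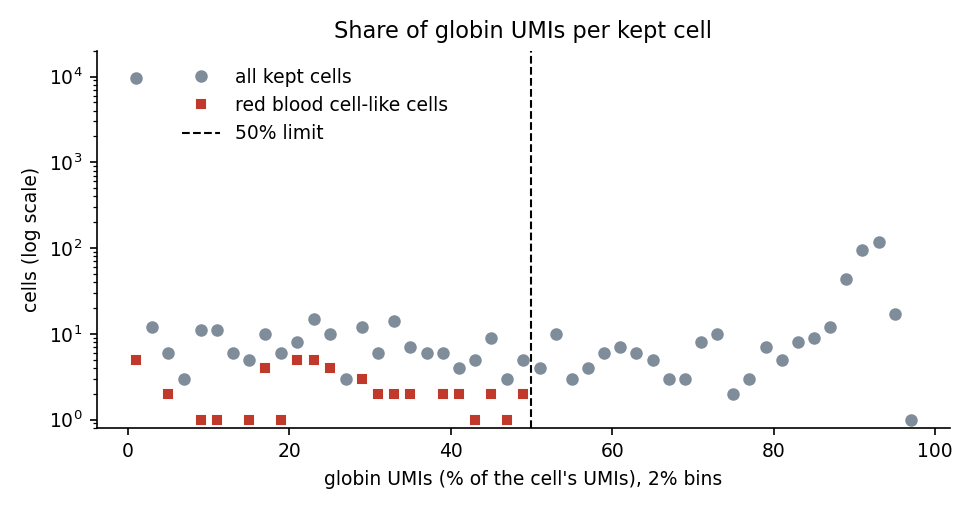
Number of kept cells (log axis) by the percent of the cell's UMIs that came from the 7 globin genes, in 2% bins; bins without cells are not drawn. Grey circles are all 10129 kept cells and red squares the 48 red blood cell-like cells; the circles pile up at both ends, with few cells around the 50% limit (dashed).

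The red blood cell markers were present. All 8 that were compared (among them *Slc4a1*, *Alas2*, *Bpgm*, *Rhag* and *Hemgn*) were at least 2-fold higher in globin-rich than in other kept cells, and 1 further marker of the list was not analysed here. Over all 15789 genes compared, 6.62% were at least 2-fold higher and 25.4% at least 2-fold lower. Levels other than those of the globins are given as non-globin CPM, the UMIs of a gene per 1000000 UMIs outside the 7 globin genes, because globin fills most of a globin-rich cell. On this scale the 8 markers summed to 22219 against 50.2. Transcripts of other cells were present too. The 12 acinar markers, digestive enzymes for the most part, summed to 72757 non-globin CPM in globin-rich cells against 44273 in other kept cells. Of the 12, 11 had UMIs, but only 1 was at least 2-fold higher, so the sum does not stand for the whole list. The acinar gene *Ctrb1*, encoding chymotrypsinogen B, had a UMI in 353 of the 390 cells. Of the 5 neutrophil markers, 3 were higher, but the 91 UMIs of *S100a8* lay in 2 cells. Endocrine markers summed to 417 against 174, from 43 UMIs of 4 of the 8 markers, with the rest at 0. Macrophage markers summed to 87.3 against 88.5, from 9 UMIs of 2 of the 8 markers. The 9 fibroblast markers all had UMIs and summed to 6178 against 37494. The part of RNA from other cells in the levels below was not tested.

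The adult chains were counted in all 390 globin-rich cells, and *Hbb-bs* led. *Hbb-bs*, a major adult beta chain, had 300495 UMIs there, with 302 in the lowest cell, a median of 702.5 and 2080 in the highest. *Hba-a1*, an adult alpha chain, had 102497 UMIs, with a lowest, median and highest cell of 74, 202.5 and 1342. *Hba-a2*, its near-identical neighbour, had 69295 UMIs (31, 140.5 and 867). *Hbb-bt*, the other adult beta chain, had 66576 UMIs (6, 160.5 and 552). Of the globin UMIs of these cells, 55.8% were *Hbb-bs*, 19.0% *Hba-a1*, 12.9% *Hba-a2* and 12.4% *Hbb-bt*. After each cell had been thinned to 800 UMIs, all 4 genes were still found in all 390 cells.

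Alpha chains made up less than an even share of the adult globin UMIs. The alpha share was 31.9% (31.8 to 32.0) of 538863 UMIs, or 0.468 alpha UMIs for each beta UMI. Stretches shared by both copies, whose reads are lost, were more frequent in the alpha pair than in the beta pair, and their part in this value was not tested. Single cells spread widely around it, from 17.8% to 48.6% with a median of 29.2%. The SD over cells was 6.10 percentage points, against 1.35 that counting alone would give at these depths. The cell with the lowest share had 183 *Hba-a1*, 130 *Hba-a2*, 1200 *Hbb-bs* and 242 *Hbb-bt* UMIs. The cell with the highest share had 557, 389, 851 and 148 UMIs of the same genes. No cell held as many alpha as beta UMIs.

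Cells with more globin had a larger alpha share. It was 26.3% (25.7 to 26.9) in the 30 cells with under 800 globin UMIs and 27.6% (27.4 to 27.9) in the 162 cells with 800 to 1200. It was 30.1% (29.8 to 30.3) in 112 cells with 1200 to 1600 and 37.4% (37.2 to 37.6) in 86 cells with 1600 or more. Over the 390 cells the alpha share and the globin UMIs had a Pearson correlation of 0.62 and a Spearman correlation of 0.57, given as a description since the cells share a library and the globin UMIs are the denominator of the share. Thinning each cell to 800 UMIs took the pooled share to 30.3%, and the mean over cells was 30.2%, both below the pooled value.

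Within the pairs, the copies were unequal. *Hba-a1* held 59.7% (59.4 to 59.9) of alpha UMIs, with 46.9% to 83.0% in single cells and an SD of 4.84 percentage points against 2.67 from counting. *Hbb-bs* held 81.9% (81.7 to 82.0) of beta UMIs, with 66.4% to 98.5% in single cells and an SD of 4.66 against 1.32. Neither share moved with the globin UMIs as the alpha share did. *Hba-a1* stood between 59.5% and 59.8% of alpha in all 4 bins of globin UMIs, and *Hbb-bs* stood at 84.6% (84.0 to 85.2) of beta in the lowest bin and 81.4% (81.2 to 81.6) in the highest.

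The *Hba-a1* share was higher in cells that carried transcripts of dividing cells. In the 39 globin-rich cells with a UMI of *Mki67*, *Top2a*, *Cenpf* or *Birc5*, all cell cycle genes, it was 66.6% (65.9 to 67.3), and in the other 351 it was 58.9% (58.7 to 59.2). The *Hbb-bs* share was 79.5% and 82.1% in the same sets. The alpha share was 32.5% (32.1 to 32.9) and 31.8% (31.7 to 31.9). The cells with a cycle UMI were deeper outside globin, with a median of 751 non-globin UMIs against 128, and the part of this depth was not tested.

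**Figure D2:**
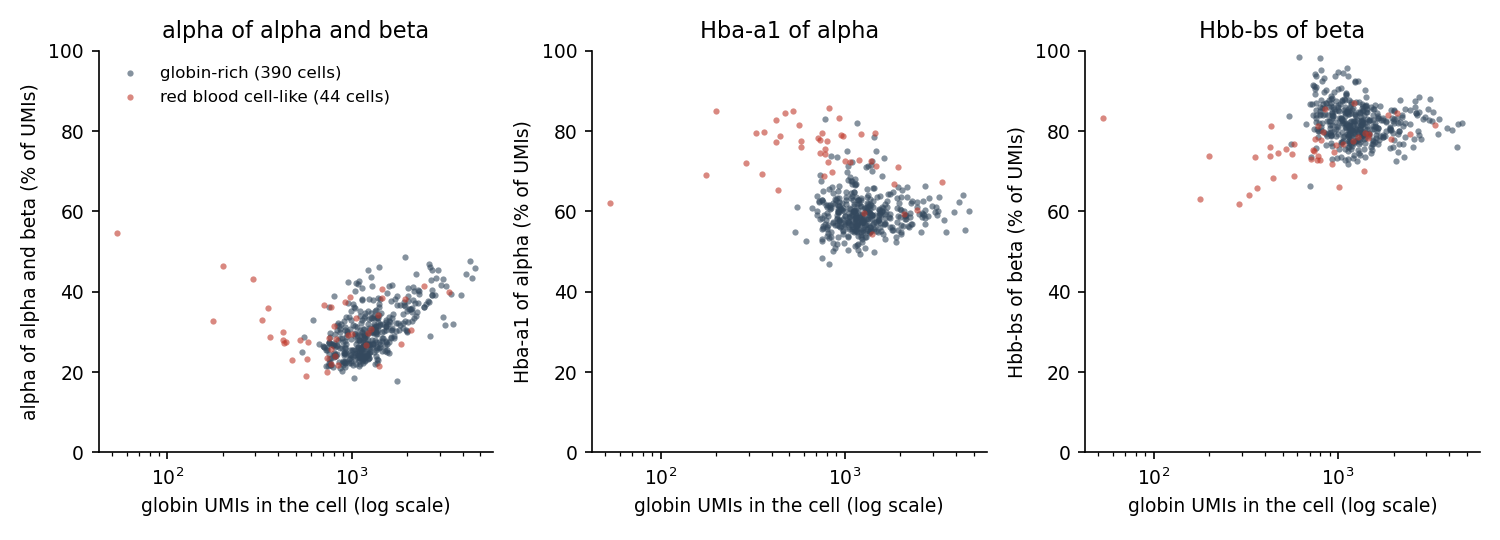
Chain shares of single cells against the globin UMIs of the cell (log axis), as percent of alpha and beta UMIs (left), of alpha UMIs (middle) and of beta UMIs (right). Each point is 1 cell, 390 globin-rich and the 44 red blood cell-like cells with at least 50 alpha and beta UMIs; the alpha share climbs with globin UMIs, and the red points lie mostly above the others in the middle panel.

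The embryonic chains were not detected. *Hba-x* (zeta), *Hbb-bh1* and *Hbb-y* (epsilon) had 0 UMIs in the globin-rich cells, in all kept cells and in all 11789 barcodes. A count of 0 among 538863 globin UMIs allows up to 5.57 per 1000000 globin UMIs for each gene in globin-rich cells, and 0 among the 793212 globin UMIs of all barcodes allows up to 3.78. *Hbb-bh2*, a further beta-like gene that is not a member, was likewise at 0. The alpha-like theta genes *Hbq1a* and *Hbq1b* were present at low counts. *Hbq1b* had 21 UMIs in globin-rich cells, 204 non-globin CPM (126 to 311), against 0.563 (0.328 to 0.901) in other kept cells, and *Hbq1a* had 7 UMIs against 3.

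*Alas2* was found in most globin-rich cells and was nearly absent from cells under 5% globin. It had 624 UMIs in globin-rich cells, 972 CPM (UMIs per 1000000 UMIs of all genes; 897 to 1051), with 0 in the lowest cell, a median of 1 and 18 in the highest. Its level was 6052 non-globin CPM (5586 to 6546) against 6.95 (6.04 to 7.96) in other kept cells. Among cells under 5% globin, red blood cell-like cells left out, it was 0.538 from 16 UMIs in 9565 cells. A UMI of *Alas2* was found in 275 of the 390 globin-rich cells, or 70.5%. With each cell thinned to 800 UMIs the share was 51.5% (46.5 to 56.6) in globin-rich cells and 0.0523% (0.0170 to 0.122) in the cells under 5% globin.

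Per cell, *Alas2* was higher where a globin-rich cell held more other RNA, and relative to that other RNA it was lower. Its mean was 0.886 UMIs in the 105 cells with under 100 non-globin UMIs and 1.39 in the 157 cells with 100 to 200. It was 2.21 in 57 cells with 200 to 400 and 2.62 in 71 cells with 400 or more. The share of cells with an *Alas2* UMI was 61.0%, 68.2%, 86.0% and 77.5% in the same order. In non-globin CPM the level was 11612, 10206, 8199 and 3192, but the UMIs that cut these bins are also the denominator of that scale, which by itself makes the level lower in the higher bins. *Malat1*, a long noncoding RNA kept in the nucleus, stood at 2747, 2330, 10867 and 20609 non-globin CPM. *Tfrc*, the transferrin receptor through which red cell precursors take up iron, had 0, 2, 19 and 87 UMIs in these bins. Cells with an *Alas2* UMI had an alpha share of 32.7% (32.5 to 32.8) and cells without one 29.4% (29.2 to 29.7), at median globin counts of 1297 and 1085 UMIs.

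Most genes of heme synthesis were higher in globin-rich cells. Of the 16 listed, 13 were at least 2-fold higher than in other kept cells, 1 was at least 2-fold lower and 2 lay between, with a median log2 fold of 3.72. Over all genes compared the median was -0.41, with 6.62% at least 2-fold higher and 25.4% at least 2-fold lower. Folds are of non-globin CPM with a pseudocount of 10, which understates the change of low genes. Counted against cells under 5% globin, 13 genes were again higher and 1 lower. Levels are pooled over cells and need not be those of a typical cell. A UMI of *Alad*, *Cpox*, *Ppox* and *Uros* was found in 22, 25, 16 and 8 of the 390 globin-rich cells. *Fech* and *Slc25a37* were found in 107 and 150.

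The pathway can be followed by its steps. *Alas1*, the form of the first enzyme used outside red cells, had 0 UMIs in globin-rich cells, which allows up to 29.1 non-globin CPM, above the 26.0 (24.2 to 27.8) of other kept cells. Its lower call therefore rests on the pseudocount, and a difference was not detectable at this depth. *Alad*, which joins aminolevulinate into porphobilinogen, stood at 310 non-globin CPM (212 to 438) against 17.7. *Uros*, which closes the porphyrin ring, had 8 UMIs, at 77.6 (33.5 to 153) against 4.47, and *Urod*, which follows it, stood at 563 (427 to 727) against 19.0. The levels of the enzymes thus differed widely.

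The last enzymes act in or at the mitochondrion. *Cpox* stood at 466 non-globin CPM (343 to 617) against 22.6 and *Ppox* at 175 (103 to 276) against 5.53. *Fech*, which inserts iron into protoporphyrin to make heme, stood at 1620 (1383 to 1885) against 32.2 and was 50.3-fold higher (42.5 to 59.4). Of the transporters, *Slc25a37* (mitoferrin-1, which brings iron into mitochondria) was the highest at 3094 (2764 to 3453) against 15.5, a ratio of 200 (173 to 231). *Abcb10*, its partner in the inner membrane, stood at 466 (343 to 617) against 12.2, and the mitochondrial carrier *Slc25a38* at 87.3 (39.9 to 166) against 7.42. *Slc25a39* stood at 1164 (965 to 1392) against 57.5 and *Tmem14c*, needed for porphyrin handling, at 281 (188 to 404) against 92.3. *Abcb6*, with 1 UMI in globin-rich cells, lay between the limits.

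**Figure D3:**
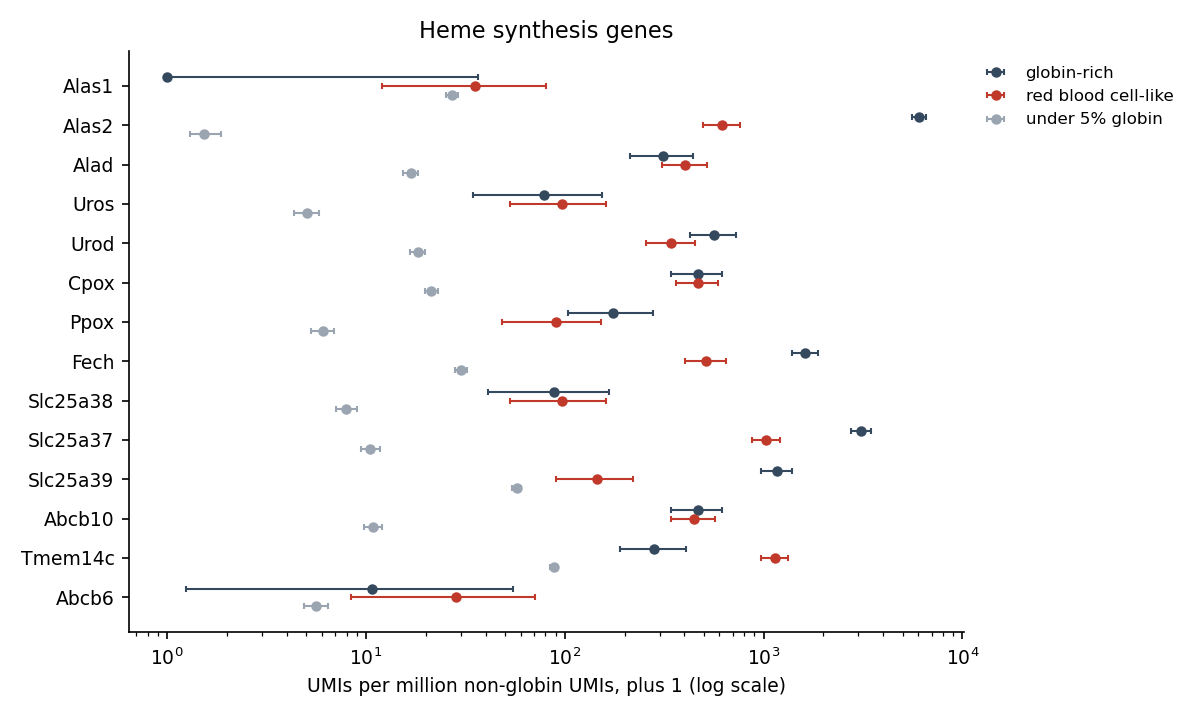
Levels of 14 heme synthesis genes in non-globin CPM plus 1 (log axis), with exact 95% counting intervals. Dark points are globin-rich cells, red points red blood cell-like cells and grey points cells under 5% globin. *Alas2* shows the widest gap, at 6052, 616 and 0.538. Median UMIs outside globin were 139 in globin-rich and 2610.5 in red blood cell-like cells, and the part of this depth in the levels was not tested.

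Genes of red cell structure behaved like the heme genes. Of 17 red cell membrane genes, 16 were at least 2-fold higher, none was lower, and the median log2 fold was 5.57. Over all genes compared, 6.62% were higher and 25.4% lower. *Slc4a1*, the band 3 anion exchanger, stood at 2609 non-globin CPM (2306 to 2940) against 8.04. The other kept cells include the 48 red blood cell-like cells described below, which held 190 of the 243 *Slc4a1* UMIs found there, and in cells under 5% globin its level was 1.21. *Slc2a1*, a glucose transporter, had 0 UMIs, which allows up to 29.1 against 6.06 in other cells. Of 11 cytosolic red cell genes, 10 were higher and none was lower, with a median log2 fold of 5.76. *Bpgm*, which makes the bisphosphoglycerate that eases oxygen release, stood at 4083 (3702 to 4492) against 13.4. *Car2*, a carbonic anhydrase, stood at 3026 (2699 to 3381) against 12.4, or 2.46 in cells under 5% globin.

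Genes that clear proteins and organelles from reticulocytes were also high. Of the 9 compared, all 9 were at least 2-fold higher, against 6.62% of all genes compared, with a median log2 fold of 4.98. *Mkrn1*, a ubiquitin ligase, stood at 3695 non-globin CPM (3333 to 4085) against 31.4. *Ube2l6*, an enzyme that passes on ubiquitin and the ubiquitin-like ISG15, stood at 2328 (2042 to 2641) against 23.3. *Bnip3l*, which marks mitochondria for removal, stood at 2502 (2206 to 2827) against 127.

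Iron handling and heme breakdown were mixed. Of 7 genes of iron uptake and storage, 4 were higher and 2 lower, where 6.62% and 25.4% of all genes compared were. *Tfrc* stood at 1047 non-globin CPM (859 to 1265) against 20.7, and the ferritin chains *Ftl1* and *Fth1* at 4927 (4508 to 5374) and 5159 (4730 to 5617) against 907 and 1658. *Steap3*, an iron reductase, had 2 UMIs and a ratio of 0.145 (0.0176 to 0.525). *Aco1* was at 0, where up to 29.1 is allowed against 28.5 in other cells, so a difference was not detectable at this depth. Of 8 genes of heme breakdown and export, 2 were higher, *Blvrb* at 2308 (2024 to 2621) against 74.1 and *Slc48a1* at 262 (173 to 381) against 22.4. The other 6, among them the heme oxygenases *Hmox1* and *Hmox2* with 0 and 2 UMIs, lay between the limits.

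Erythroid transcription factors ranged widely in UMIs. Of 12 factors compared, 7 were at least 2-fold higher and 2 lower, with a median log2 fold of 1.85. Over all genes compared, 6.62% were higher and 25.4% lower. *Sox6*, a factor of red cell maturation, led with 154 UMIs in 53 cells, at 1494 non-globin CPM (1267 to 1749) against 145. *Klf1*, which binds CACCC sites of adult globin promoters, stood at 136 (74.2 to 228) against 1.62, or 0.370 in cells under 5% globin. Of its 14 UMIs, 12 lay in the 71 cells with 400 or more non-globin UMIs, as did all 3 UMIs of *Gata1*, and those cells had a median of 63.1% globin. In non-globin CPM *Klf1* stood at 206 (106 to 360) there and at 130 (15.8 to 470) in cells with 200 to 400. Those 71 cells were the deepest outside globin, and the part of depth in these counts was not tested. *Nfe2* had 18 UMIs in globin-rich and 19 in other kept cells, so it reached the minimum of 20 UMIs for a comparison only with the globin-rich cells. Without it, 6 of 11 factors were higher. *Ldb1* and *Bcl11a*, the factors called lower, had 1 UMI each, and the intervals of their ratios, 0.00520 to 1.15 and 0.00677 to 1.49, include 1. Of 5 progenitor and cycle genes, 3 were higher and 1, *Cd34*, was lower at 58.2 (21.4 to 127) against 437. The higher genes were *Mki67* and *Top2a*, with 59 and 50 UMIs in 26 and 22 cells, and *Epor*, the erythropoietin receptor. *Epor* had 6 UMIs in globin-rich and 14 in other kept cells and likewise passed the minimum only with the globin-rich cells, and without it 2 of 4 genes were higher. The cells with a cycle UMI had a median of 61.2% globin, against 91.3% in the rest.

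Outside the lists, the 10 genes with the highest folds were *Tent5c*, *Tmcc2*, *Cd24a*, *Slc25a21*, *Rec114*, *Specc1*, *Prxl2a*, *Trim10*, *Syt14* and *March3*, with log2 folds of 6.53 to 5.41. *Tent5c*, a poly(A) polymerase, led with 290 UMIs in 177 of the 390 cells, at 2813 non-globin CPM against 20.5. *Cd24a*, a surface glycoprotein of red cell precursors and other cells, had 423 UMIs and stood at 4102 against 58.7. Among the 5 genes whose log2 levels over 14 classes of cells were most like those of the summed globins were *Car2*, *Slc4a1*, *Fhdc1* and *Trim10*, with Pearson correlations of 0.944 to 0.941. *Alas2* stood at 0.956 on the same measure. The classes share a library, and only the globin-rich and red blood cell-like classes hold much globin, so these values are a description.

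A separate set of 48 cells held red cell markers with less than 50% globin. Kept cells outside the globin-rich set were clustered without the 8 members, and the cluster called red blood cell-like carried all 7 markers counted for that name. These cells had medians of 3421.5 UMIs, 2610.5 UMIs outside globin and 761.5 globin UMIs, with a globin share of 23.6% at the median. A cycle UMI was found in 44 of the 48, against 39 of the 390 globin-rich cells. The globin-rich cells were much shallower outside globin, with a median of 139 UMIs. In pooled non-globin CPM the 4 cycle genes summed to 2326 in the red blood cell-like and 2017 in the globin-rich cells. The part of depth in the counts of cells was not tested. Scrublet, a caller of droplets that held more than 1 cell, marked 10.4% of the 48 cells and 0.256% of globin-rich cells.

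Their alpha share was 31.9% (31.5 to 32.4) of 40832 globin UMIs, with an interval that overlaps that of the globin-rich cells. These pooled values are not at like globin counts. Globin-rich cells with under 800 and with 800 to 1200 globin UMIs stood at 26.3% and 27.6%. The red blood cell-like cells had a median of 761.5 globin UMIs, against 1207 in globin-rich cells, and a median alpha share of 29.9%, against 29.2%. The copies inside the pairs differed. *Hba-a1* held 71.7% (70.9 to 72.4) of their alpha UMIs, above the 59.7% of globin-rich cells, and *Hbb-bs* held 77.5% (77.0 to 78.0) of their beta UMIs, below 81.9%. Embryonic chains were at 0, which allows up to 73.5 per 1000000 globin UMIs for each gene at this lower depth.

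Heme and red cell genes in the red blood cell-like cells followed another order. *Alas2* had 90 UMIs in 35 of the 48 cells and stood at 616 non-globin CPM (495 to 757), against 6052 in globin-rich cells. This scale depends on the UMIs outside globin, with medians of 2610.5 in red blood cell-like and 139 in globin-rich cells. In CPM of all genes *Alas2* stood at 481 (387 to 592) against 972, and its median per cell was 2 UMIs against 1. It stood at 3192 non-globin CPM in the 71 globin-rich cells with 400 or more UMIs outside globin. The part of depth in these levels was not tested. *Tmem14c* was higher in the red blood cell-like cells, at 1136 against 281. *Cpox*, *Alad* and *Abcb10* stood at 465, 404 and 445, near their levels in globin-rich cells. *Car1*, a carbonic anhydrase, had 54 UMIs in the 48 cells and 1 in the 390. *Klf1*, *Tal1* and *Gata1* stood at 253, 226 and 144, against 136, 116 and 29.1. The intervals overlapped for *Klf1* (178 to 349 against 74.2 to 228) and *Tal1* (155 to 317 against 60.1 to 203), but not for *Gata1*. In the 71 globin-rich cells with 400 or more non-globin UMIs, *Klf1* stood at 206 (106 to 360) and *Gata1* at 51.5 (10.6 to 150). Both of these intervals overlapped those of the red blood cell-like cells. *Bpgm*, *Mkrn1* and *Bnip3l* stood at 130, 294 and 198, against 4083, 3695 and 2502 in globin-rich cells.

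Of the other 9691 kept cells, 126 had 5% to 50% globin and held most of the globin outside the red cells. They carried 106699 of the 123822 globin UMIs found outside both globin-rich and red blood cell-like cells. Outside globin-rich cells alone there were 164654, of which these 126 cells carried 64.8% and the red blood cell-like cells 40832. Scrublet marked 68 of the 126, or 54.0%, against 4.47% of the 9565 cells under 5% globin. These 126 cells lay in every named class, from 0.556% of smooth muscle and pericyte-like cells to 3.53% of acinar-like cells. Their alpha share was 28.2% (27.9 to 28.5), and *Hba-a1* and *Hbb-bs* held 58.7% (58.1 to 59.2) and 85.2% of their pairs. *Alas2* had 104 UMIs in 60 of them.

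**Figure D4:**
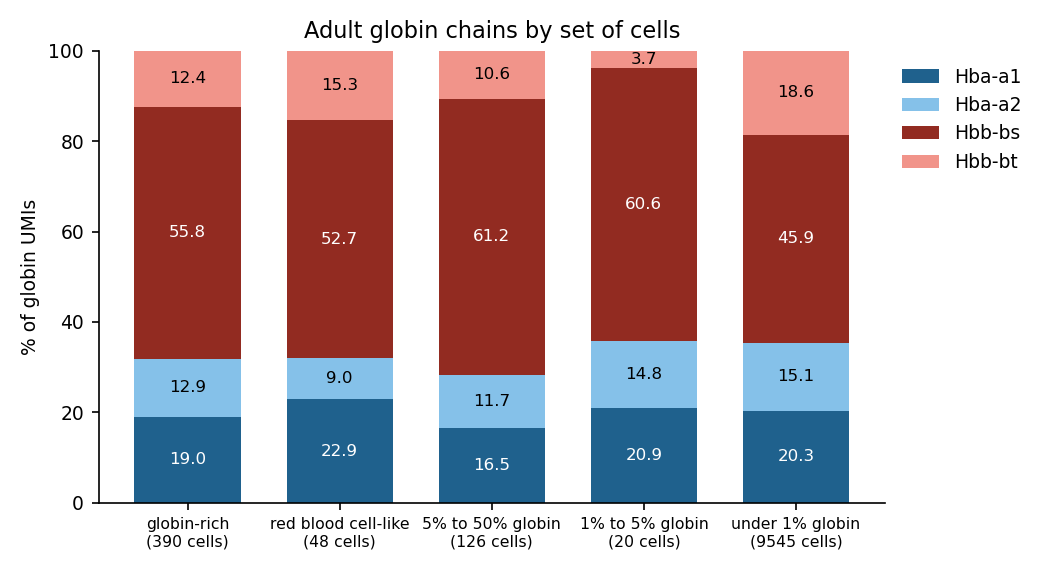
Share of the 4 adult chains in the globin UMIs of each set of cells, as stacked bars that sum to 100% (cells per set under the bars; red blood cell-like cells are left out of the 3 sets on the right). *Hbb-bs* is the largest share in every set, from 45.9% in cells under 1% globin to 61.2% in cells with 5% to 50%, and *Hbb-bt* runs from 3.72% in the 20 cells with 1% to 5% globin to 18.6% in cells under 1%.

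Most other cells held a trace of globin. Of the 9565 cells under 5% globin, 29.7% had no globin UMI, 29.9% had 1, 18.3% had 2, and 67 cells had over 10. Together they held 17123 globin UMIs. Cells of 800 to 1500 UMIs had a mean of 0.812 globin UMIs and cells of 4000 to 10000 UMIs 3.36, while the level moved less, from 692 CPM (659 to 726) to 566 (554 to 578). *Alas2* was found in 15 of these cells, with 16 UMIs.

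The make-up of the trace differed from that of the globin-rich cells. In the 9545 cells under 1% globin the alpha share was 35.5% (34.7 to 36.2), above the 31.9% of globin-rich cells. *Hbb-bs* held 71.1% (70.2 to 72.0) of beta UMIs, below 81.9%, so that *Hbb-bt* took 18.6% of all globin UMIs instead of 12.4%. *Hba-a1* held 57.4% (56.0 to 58.7) of alpha UMIs against 59.7%. In the 20 cells with 1% to 5% globin, *Hbb-bs* held 94.2% (92.6 to 95.5) of beta UMIs, but 366 of their 1638 globin UMIs came from a single cell.

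Stray globin differed between the classes outside the red cells, and its source in each class was not tested. In cells under 5% globin of these classes, stray globin was highest in acinar and ductal-like cells, at 1025 CPM (975 to 1077). Acinar-like cells were next, at 848 (799 to 899). Endothelial-like cells followed at 774 (728 to 823) and mesothelial-like cells at 723 (687 to 762), and neighbours from acinar-like to mesothelial-like overlapped in their intervals. From B cell-like cells at 623 (577 to 672) down to fibroblast-like cells at 488 (477 to 499), each class overlapped the next. Cycling-like cells were lowest at 431 (396 to 468). The 5 red blood cell-like cells under 5% globin stood at 2842 (2270 to 3514). They held 2, 3, 4, 23 and 53 globin UMIs, so most of this level came from few cells.

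A few cells decided part of this order. With cells of 1% to 5% globin also left out, the endothelial-like level was 388 (355 to 423), from the loss of 4 of 332 cells. Endothelial-like cells were then lowest in place of cycling-like cells at 431 (396 to 468), with overlapping intervals. The mesothelial-like level was 478 (448 to 509), from the loss of 3 of 516. Acinar and ductal-like cells were still highest at 972 (924 to 1023), and the acinar-like level of 848 was the same, since no such cell was lost. Thinned to 800 UMIs, 51.0% (45.6 to 56.4) of acinar and ductal-like and 43.9% (38.7 to 49.3) of acinar-like cells had a globin UMI. In endothelial-like cells the share was 27.1% (22.4 to 32.2) and in fibroblast-like cells 30.6% (29.3 to 31.9). Before thinning these shares were 91.0%, 89.9%, 72.0% and 68.1%, at median depths of 3982, 3328, 3423 and 2595 UMIs. Acinar-like cells did not stand apart from every other class after thinning. The thinned share was 43.1% (34.6 to 51.8) in neutrophil and macrophage-like cells and 41.97% (37.7 to 46.3) in B cell-like cells. Both intervals overlapped those of acinar-like and of acinar and ductal-like cells.

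Under 1% globin the chains kept a similar ratio in most classes. *Hbb-bs* held between 69.1% and 75.7% of beta UMIs in every named class but dendritic-like cells, where it held 60.4% (51.8 to 68.6) of 139 beta UMIs. The alpha share ran from 29.1% (22.8 to 36.0) in dendritic-like to 38.9% (29.1 to 49.5) in Schwann-like cells, and was 37.1% in acinar-like and 35.4% (34.3 to 36.5) in fibroblast-like cells.

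**Figure D5:**
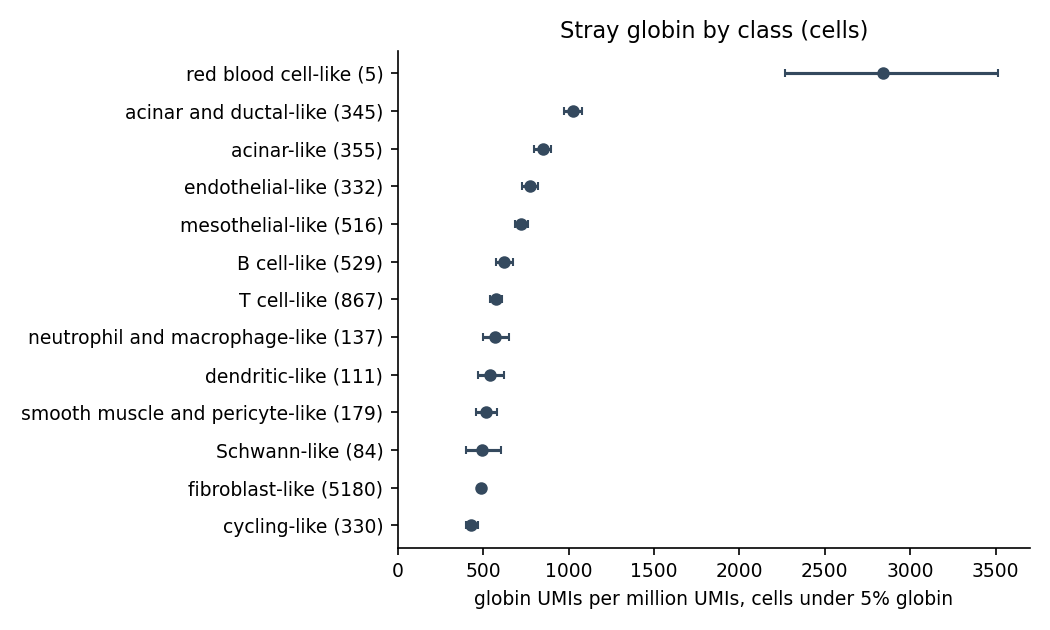
Globin level in CPM in cells under 5% globin, by class, with exact 95% counting intervals; the number of cells is in brackets, and unnamed clusters are left out. Acinar and ductal-like cells lead the classes outside the red cells at 1025 and cycling-like cells are lowest at 431.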

How the data were processed

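Cells of the digested pancreata were captured with a 3′ droplet kit. According to the study, the authors aligned the reads with Cell Ranger 7.1.0 to mm10, and the deposited values are whole-number counts of UMIs per gene and barcode. A step against ambient RNA that the study names does not show in these whole-number counts and was not repeated. Such a step, where applied, would lower stray globin.

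Barcodes with over 800 and under 10000 UMIs and under 15% mitochondrial UMIs were kept. Doublets were scored with Scrublet in scanpy 1.11.5 (expected rate 0.08), which marked 502 cells; none was removed. Kept cells under 50% globin were clustered in Seurat 5.3.0 without the 8 members (2000 variable genes, 30 components, resolution 0.5). Clusters were named from fixed markers when at least 3 were 2-fold higher, by a rule set after the clusters were seen. Levels are pooled UMI counts with exact Poisson intervals, and shares have exact Clopper-Pearson intervals, at 95%. A gene at 0 was given the limit that 3 counts allow. Genes with at least 20 UMIs over all kept cells were compared, and a 2-fold difference with a pseudocount of 10 CPM was called. These calculations and the thinning of cells to 800 UMIs were tested on simulated data with python 3.11.15, numpy 2.4.6 and scipy 1.17.1.

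The members and gene lists were chosen with earlier results of these data known. Named genes are the members, every listed gene group, the 10 other genes with the highest folds and the 5 genes whose levels over classes were most like the summed globins; some of these genes count in the group totals but are not reported here by name. Since 1 library of mixed animals was analysed, no test between samples was made, and PCR and animal variation are not in any interval.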

Additional observations from a re-analysis of the deposited data

Results flagged for a closer look

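Of the 752 barcodes at or under 800 UMIs, which the UMI limit left out of every comparison, 74 had at least 50% globin UMIs, or 9.84% (7.81 to 12.2). They had a median of 682.5 UMIs. *Hbb-bs* held 89.5% (89.1 to 89.8) of their beta UMIs, above the 81.9% of the kept globin-rich cells. Alpha chains held 27.2% (26.8 to 27.6) of their globin UMIs against 31.9%. The 30 kept globin-rich cells with under 800 globin UMIs had an alpha share of 26.3% (25.7 to 26.9) and an *Hbb-bs* share of 84.6% (84.0 to 85.2). The 74 barcodes had a median of 609.5 globin UMIs, so no lower alpha share was seen against kept cells of low globin count. *Alas2* had 42 UMIs in them, and *Tfrc*, *Klf1* and *Gata1* had none. At this depth the 95% interval of a count of 0 reaches 724 non-globin CPM. That is above the 136 of *Klf1* and the 29.1 of *Gata1* in the kept globin-rich cells, so a difference in these 2 was not detectable. *Tfrc* stood at 1047 in the kept globin-rich cells, but mostly from cells with more RNA outside globin. The 74 barcodes had a median of 58.5 non-globin UMIs. The 105 kept globin-rich cells with under 100 non-globin UMIs likewise had 0 *Tfrc* UMIs, and the 157 cells with 100 to 200 had 2. No difference in *Tfrc* from kept cells of like depth was therefore seen. No barcode at or over 10000 UMIs and none at or over 15% mitochondrial UMIs was globin-rich. Barcodes above the upper UMI limit still held globin. With that limit raised by a factor of 10, globin UMIs outside the globin-rich set were 193532 in place of 164654. Over all barcodes *Alas2* had 1022 UMIs, up to 91 in a barcode, against 834 and up to 18 in kept cells. Whether red cells were among the barcodes above the limit was not tested.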

How the results depend on the processing

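Globin-rich cells, 3.85% of kept cells, were 4.97% with a limit of 20% globin, 3.05% with a limit of 80%, 4.28% with no lower UMI limit and 2.13% with over 1500 UMIs required. The alpha share, 31.9%, was 31.4% with the 20% limit, 31.5% with no lower UMI limit, 34.6% with over 1500 UMIs, 30.3% after thinning and 30.2% as a mean over cells. *Alas2*, at 972 CPM, stood at 773 with the 20% limit and at 6052 with globin left out of the denominator. Stray globin in all kept cells outside the globin-rich set was 5421 CPM. It was 5682 with over 1500 UMIs, 3985 with the upper UMI limit raised by a factor of 10, 5504 with under 5% mitochondrial UMIs, 3309 without the cells Scrublet marked and 578 without cells of 5% to 50% globin. Without the red blood cell-like cells, a setting chosen after seeing the data, it was 4102. For the shifts of the 20%, 5% to 50% and red blood cell-like settings the change of cells is the setting itself, and for the others the cause was not tested. The embryonic chains had no UMI in any barcode, so no setting could change their value. By class, resolution 1.0 moved none of 12 stray levels beyond its interval, while at resolution 0.2 the acinar names cover other cells. There the acinar and ductal-like cluster held 752 cells, at 926, and the acinar-like name fell on 287 cells led by *Ins2* and *Ins1*, at 634, so neither value is a shift of the cells so named in the report. With the minimum of 20 UMIs required in other kept cells alone, a setting chosen after seeing the data, the counts of the lists were as given except for the transcription factors and the progenitor and cycle genes. Stray globin as UMIs per cell in place of CPM was not run as a setting, since its unit differs. No paired analysis was possible because there is 1 sample. A typical globin-rich cell held 139 UMIs outside globin, so low genes can be missed in single cells. In the pooled globin-rich cells, 0 UMIs of a gene allow up to about 29.1 non-globin CPM.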
